A study of Sus scrofa with 6 samples.

Results

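The genes followed here make and load the peptides that MHC class I molecules show at the cell surface. They were SLA-1, SLA-2 and SLA-3, the classical class I heavy chains of the pig, B2M, TAP1, TAP2, TAPBP, PSMB8, PSMB9 and NLRC5. They were chosen by name, with earlier results of these data known. Of these 10 genes, 5 were found by gene name among the 30477 genes of the deposited table, namely B2M, TAP1, PSMB8, PSMB9 and NLRC5. TAP2 carried no symbol there and was matched by its identifier and its description, which gave 6 genes with values. SLA-1, SLA-2 and SLA-3 were not analysed here, and TAPBP could be read only from an entry that it shared with a neighbouring gene.

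The study asked how a diet that induces atherosclerosis changes the aorta of the pig. Abdominal aorta was taken from male Wuzhishan pigs, a Chinese miniature breed, after 6 months on normal chow (NC group, 3 pigs) or on a diet high in fat, cholesterol and fructose (HFCF group, 3 pigs). The sample labels give an age of 3 to 4 months for all pigs, and the methods of the study give an older one. mRNA was sequenced, with 1 library per pig, and levels are given as FPKM, the fragments of a gene scaled to the length of its exons and to the mapped reads of the library.

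In most cells, class I molecules are assembled continuously. The proteasome cuts cytosolic proteins into peptides, and under interferon gamma its catalytic beta subunits are replaced by the immunosubunits PSMB8, PSMB9 and PSMB10, which changes the peptides that are produced. The transporter made of TAP1 and TAP2 carries the peptides into the endoplasmic reticulum, where tapasin (TAPBP), calreticulin and PDIA3 hold the empty heavy chain beside the transporter and ERAP1 and ERAP2 trim the peptides. The heavy chain then leaves for the cell surface with beta-2 microglobulin (B2M) and its peptide, to be read by CD8 T cells and natural killer cells. NLRC5 is the transcriptional coactivator of the class I genes, as CIITA is of the class II genes.

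The libraries carried the markers of their labelled tissue, with ACTA2 at 3359 to 9145 FPKM and MYH11 at 824 to 2201 FPKM over the 6 pigs. Their depth is not given in the sources used here. It was estimated from the most common ratio, between NC pig 1 and another library, of low FPKM values of the same gene. By this estimate, which rests on 15 to 42 genes a library, it was 1.03 to 1.09 times that of NC pig 1 in 4 pigs and 1.37 times in NC pig 3. Across genes, which do not count as replicates, libraries of the NC group correlated at 0.957 to 0.970, those of the HFCF group at 0.927 to 0.955, and libraries from different groups at 0.841 to 0.910. The methods of the study state that the pigs were housed singly. The labels do not say whether they shared a litter, so the p-values cover only the spread between these 6 animals.

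Differences between the diets were tested on log2(FPKM + 0.1) with limma over 15384 genes, those whose mean over the 6 pigs reached 0.1 FPKM, and a gene was called at a Benjamini-Hochberg adjusted p under 0.05. Of the 5 genes found by name, 4 were called higher in the HFCF group and none lower, and with TAP2 the count was 5 of 6. NLRC5 was the gene that was not called. Of all tested genes, 22.8% were called higher and 6.16% lower. The median log2 fold change of the 5 genes was 1.54, or 1.47 with TAP2, against 0.32 for all tested genes. Every HFCF pig lay above every NC pig in 5 of the 6 genes and in 36.1% of all tested genes. By the thresholds of the study, a ratio of group means above 2 and an unadjusted p under 0.05, all 5 genes found by name were higher, as were 20.7% of all tested genes. These p-values also came from limma.

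**Figure D1:**
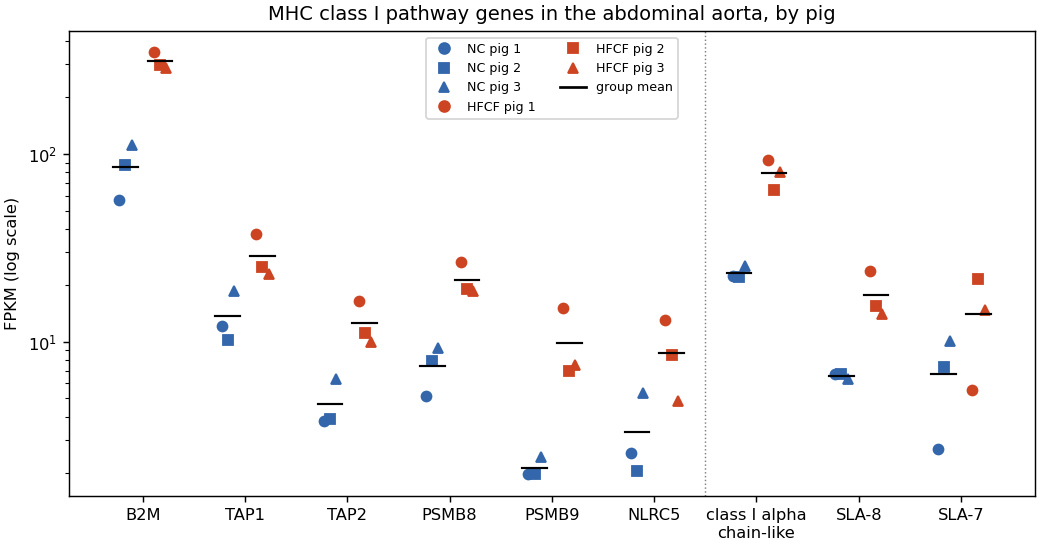
FPKM (log axis) of each pig for the 6 genes with values and, right of the dotted line, for 3 other class I heavy chain genes; blue symbols are NC pigs, red symbols are HFCF pigs and black lines are group means. The groups are separate in every gene but NLRC5 and SLA-7, and in each of the 6 genes HFCF pig 1 is the highest HFCF pig and NC pig 3 the highest NC pig.

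B2M, the light chain shared by class I molecules and their relatives, was the most abundant of the 6 genes in every pig. Its level was 56.7, 87.5 and 111 FPKM in NC pigs 1 to 3 and 348, 299 and 289 FPKM in HFCF pigs 1 to 3. The HFCF pigs lay close together and the lowest of them was far above the highest NC pig, while the NC pigs differed by 1.96 times from lowest to highest. The group means were 85.1 ± 27.3 FPKM (SD, n = 3) and 312 ± 31.5 FPKM (SD, n = 3), a ratio of 3.66. The log2 fold change was 1.92 ± 0.25 (SE), with a limma adjusted p of 0.00311. Among the tested genes of a library, B2M stood at the 95.5th to 97.7th percentile in the NC pigs and at the 98.9th to 99.2nd percentile in the HFCF pigs. The RefSeq gene table of the later build Sscrofa11.1 lists 2 B2M loci, so reads could have been divided between near-identical copies and the level is uncertain to that extent.

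TAP1 and TAP2 encode the paired chains of the peptide transporter. TAP1 measured 12.1, 10.2 and 18.6 FPKM in NC pigs 1 to 3 and 37.5, 25.1 and 22.9 FPKM in HFCF pigs 1 to 3. All HFCF pigs were above all NC pigs, but the gap between NC pig 3 and HFCF pig 3 was small. The means were 13.7 ± 4.43 and 28.5 ± 7.86 FPKM (SD, n = 3 each), and the log2 fold change was 1.07 ± 0.28 (SE, limma adjusted p = 0.0294), the smallest of the 6 genes. This call was lost when any of 4 pigs was left out: the adjusted p was then 0.0996 without NC pig 1, 0.0865 without NC pig 2, 0.0668 without HFCF pig 1 and 0.0578 without HFCF pig 2, at log2 fold changes of 0.85 to 1.14. It was also lost under each other scaling of the libraries, with adjusted p-values of 0.0561 to 0.0951.

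TAP2 measured 3.80, 3.87 and 6.37 FPKM in NC pigs 1 to 3 and 16.4, 11.2 and 9.94 FPKM in HFCF pigs 1 to 3. The lowest HFCF pig was again above the highest NC pig. The means were 4.68 ± 1.46 and 12.5 ± 3.45 FPKM (SD, n = 3 each), with a log2 fold change of 1.41 ± 0.28 (SE, limma adjusted p = 0.0117). TAP2 was called under all 16 alternative settings. Within each library, the ratio of TAP1 to TAP2 was 3.19, 2.63 and 2.93 in NC pigs 1 to 3 and 2.28, 2.24 and 2.30 in HFCF pigs 1 to 3. The ratio was lower in every HFCF pig than in every NC pig, and it hardly varied within the HFCF group. A ratio within a library is not altered by a factor applied to the whole library. The difference of the log2 ratio was -0.35, with an exact two-sided permutation p of 0.1, the smallest that 3 pigs against 3 allow.

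PSMB8, the immunosubunit that takes the place of PSMB5, measured 5.11, 7.87 and 9.27 FPKM in NC pigs 1 to 3 and 26.7, 19.0 and 18.6 FPKM in HFCF pigs 1 to 3. The lowest HFCF level was above the highest NC level. The means were 7.42 ± 2.12 and 21.4 ± 4.57 FPKM (SD, n = 3 each), and the log2 fold change was 1.54 ± 0.26 (SE, limma adjusted p = 0.00692).

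PSMB9, the immunosubunit that takes the place of PSMB6, had the largest change of the 6 genes. It measured 1.98, 1.97 and 2.43 FPKM in NC pigs 1 to 3 and 15.1, 6.95 and 7.56 FPKM in HFCF pigs 1 to 3. The NC pigs were nearly alike, and HFCF pig 1 stood well above the other two pigs of its group. The means were 2.12 ± 0.265 and 9.87 ± 4.54 FPKM (SD, n = 3 each), a ratio of 4.65, and the log2 fold change was 2.08 ± 0.31 (SE, limma adjusted p = 0.0049). PSMB8 and PSMB9 were called under all 16 alternative settings.

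In the gene order of Sscrofa11.1, TAP2, PSMB8, TAP1 and PSMB9 follow each other without another gene between them, with SLA-DOB on the TAP2 side. The methods name an earlier build for the alignment, so no coordinates are given. The ratio of PSMB9 to TAP1 was 0.163, 0.193 and 0.130 in NC pigs 1 to 3 and 0.403, 0.277 and 0.330 in HFCF pigs 1 to 3. It was higher in every HFCF pig, with a difference of the log2 ratio of 1.06 (exact two-sided permutation p = 0.1). The ratio of PSMB8 to PSMB9 was 2.59, 4.00 and 3.82 in NC pigs 1 to 3 and 1.77, 2.73 and 2.46 in HFCF pigs 1 to 3. Here the groups overlapped, since HFCF pig 2 was above NC pig 1, and the difference of the log2 ratio was -0.58 (exact two-sided permutation p = 0.2).

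NLRC5, the class I coactivator, measured 2.57, 2.05 and 5.31 FPKM in NC pigs 1 to 3 and 13.0, 8.45 and 4.82 FPKM in HFCF pigs 1 to 3. The groups overlapped, with NC pig 3 above HFCF pig 3. The means were 3.31 ± 1.75 and 8.75 ± 4.09 FPKM (SD, n = 3 each), and the log2 fold change was 1.38 ± 0.46 (SE), with a 95% interval of 0.31 to 2.45 and a limma adjusted p of 0.0594. Without NC pig 3 the log2 fold change was 1.77 with an adjusted p of 0.0337, and without HFCF pig 3 it was 1.75 with an adjusted p of 0.0355, both past the threshold. The estimate itself was of the size of those of TAP2 and PSMB8, with a wider error.

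TAPBP, which encodes tapasin, had no entry of its own. The entry with its identifier is named ZBTB22 in the deposited table and carries the KEGG annotation of both genes, so its level cannot be assigned to either. It measured 18.1, 19.4 and 19.1 FPKM in NC pigs 1 to 3 and 34.3, 20.9 and 31.1 FPKM in HFCF pigs 1 to 3. Every HFCF pig was above every NC pig, HFCF pig 2 only slightly, and the log2 fold change of 0.58 ± 0.20 (SE) had a limma adjusted p of 0.0723. Without HFCF pig 2 it was 0.79, with an adjusted p of 0.0244.

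The order of the levels per length was B2M, TAP1, PSMB8 and TAP2, from high to low, in all 6 pigs. Below them NLRC5 was above PSMB9 in the 3 NC pigs, while PSMB9 was above NLRC5 in HFCF pigs 1 and 3 but not in HFCF pig 2. TAP1 and PSMB8 were neighbours whose ranges overlapped in the HFCF group, at 22.9 to 37.5 and 18.6 to 26.7 FPKM, and did not overlap in the NC group. PSMB9 and NLRC5 overlapped in both groups. PSMB9 stood at the 44.4th to 48.5th percentile of the tested genes in the NC pigs, and at the 64.9th to 80.8th percentile in the HFCF pigs.

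Within each group, the same pig was the highest throughout. HFCF pig 1 had the highest level of its group in 6 of 6 genes, NC pig 3 the highest of its group in 6 of 6, and HFCF pig 3 the lowest of its group in 5 of 6. Among all tested genes, HFCF pig 1 was the highest HFCF pig in 42.5%, NC pig 3 the highest NC pig in 40.3%, and both held in 17.1%, while HFCF pig 3 was the lowest HFCF pig in 36.6%. The remaining pigs changed places from gene to gene. NC pig 3 was also the NC library of the greatest estimated depth. When HFCF pig 1 and NC pig 3 were left out together, an alternative chosen after the values had been seen, 5 of the 5 genes found by name were called higher, NLRC5 among them with a log2 fold change of 1.44 and a limma adjusted p of 0.0418. Under that alternative, 17% of all tested genes were called higher.

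The FPKM values of the HFCF libraries summed to more than those of the NC libraries, at 330222 to 338690 against 272207 to 287141, and the median of all tested genes was shifted by 0.32 on the log2 scale. Median-ratio scaling moved this median to -0.0031, quantile normalization to -0.07 and rescaling to TPM to 0.09. Of the genes called in either direction, 78.7% were higher in the HFCF group in the deposited FPKM, but 50.8%, 49.5% and 59.3% under these scalings. Relative to the median of all genes, the log2 fold change was 1.60 for B2M, 0.75 for TAP1, 1.09 for TAP2, 1.22 for PSMB8, 1.76 for PSMB9 and 1.06 for NLRC5. B2M, TAP2, PSMB8 and PSMB9 were called higher under all 3 scalings, and the percentage of all genes called higher was then 13.2, 11.4 and 14.5.

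Other class I heavy chain genes were present in the table. A gene described as a class I alpha chain-like antigen (ENSSSCG00000001229) measured 22.4, 22.2 and 25.3 FPKM in NC pigs 1 to 3 and 92.9, 64.2 and 80.5 FPKM in HFCF pigs 1 to 3. The groups were far apart, and the log2 fold change was 1.75 ± 0.17 (SE, limma adjusted p = 0.00127). SLA-8, a nonclassical heavy chain, measured 6.72, 6.76 and 6.31 FPKM in NC pigs 1 to 3 and 23.9, 15.5 and 14.1 FPKM in HFCF pigs 1 to 3, with a log2 fold change of 1.38 ± 0.22 (SE, limma adjusted p = 0.00566). SLA-7, named after its values were seen, measured 2.70, 7.35 and 10.1 FPKM in NC pigs 1 to 3 and 5.55, 21.7 and 14.8 FPKM in HFCF pigs 1 to 3. HFCF pig 1, the highest of its group in the 6 genes above, was here the lowest of its group and lay within the NC range, and the log2 fold change of 1.04 ± 0.62 (SE) was not called (limma adjusted p = 0.246). It was 0.49 without NC pig 1, 0.62 without HFCF pig 2 and 1.59 without HFCF pig 1, and was not called in any of these. Class I heavy chains are near-identical over long stretches and differ between animals, so reads could be divided among these entries and their levels are uncertain.

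The other genes of the pathway were taken from 6 lists, of which 55 genes were tested. These lists, too, were chosen with earlier results of these data known. Of the 55 genes, 23 were called higher in the HFCF group, or 41.8%, and 0 lower, with a median log2 fold change of 0.77. Of all tested genes, 22.8% were called higher and 6.16% lower, with a median of 0.32. The counts of each list below are to be read beside these shares. At an unadjusted limma p under 0.05 the counts were 29 higher and 1 lower. The share of all tested genes at that threshold was not computed, so these counts cannot be read beside the shares above. The gene on the lower side was IRF9, a partner of STAT2, named after its values were seen. It lay lower in every HFCF pig with a log2 fold change of -0.52 (limma adjusted p = 0.111) and was called lower under all 3 other scalings.

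Among the catalytic subunits of the proteasome, 2 of the 3 tested genes were higher. PSMB10, the remaining immunosubunit, measured 2.30, 2.33 and 1.99 FPKM in NC pigs 1 to 3 and 8.33, 5.02 and 6.01 FPKM in HFCF pigs 1 to 3. The groups were separate, with a log2 fold change of 1.48 ± 0.23 (SE, limma adjusted p = 0.00539). PSMB6, the constitutive counterpart of PSMB9, was at 71.4 to 75.6 FPKM in the NC pigs and at 64.7 to 89.9 FPKM in the HFCF pigs, a log2 fold change of 0.06 with a 95% interval of -0.31 to 0.43. PSMB7, the counterpart of PSMB10, was at 50.4 to 60.1 and 75.5 to 77.6 FPKM, with a log2 fold change of 0.49 (limma adjusted p = 0.0291). The PSMB7 call was lost without NC pig 1, NC pig 3, HFCF pig 2 or HFCF pig 3, with adjusted p-values of 0.0882, 0.0738, 0.0883 and 0.071, and under each other scaling, with 0.472, 0.0519 and 0.222.

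Set against its counterpart in the same library, each immunosubunit that could be compared was scarce in the NC pigs and less so in the HFCF pigs. The ratio of PSMB9 to PSMB6 was 0.0267, 0.0260 and 0.0340 in NC pigs 1 to 3 and 0.233, 0.0894 and 0.0841 in HFCF pigs 1 to 3. All HFCF pigs lay above all NC pigs, by a mean log2 difference of 2.07, and by 1.60 without HFCF pig 1. The ratio of PSMB10 to PSMB7 was 0.0429, 0.0387 and 0.0395 in NC pigs 1 to 3 and 0.110, 0.0650 and 0.0775 in HFCF pigs 1 to 3, a log2 difference of 1.03. Of the 6 ratios that were compared, 5 had an exact two-sided permutation p of 0.1, the smallest possible, and an adjusted p of 0.12 over the 6, so none could pass the threshold in this design. The ratio of PSMB8 to PSMB5 was not analysed here.

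**Figure D2:**
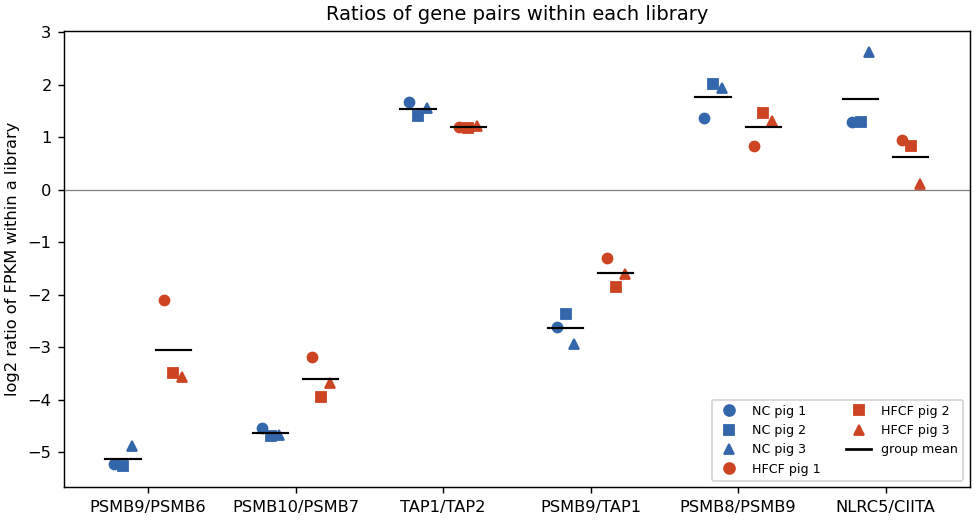
log2 ratio of the FPKM of 2 genes within a library, for 6 pairs of genes and each pig; blue symbols are NC pigs, red symbols are HFCF pigs and black lines are group means of the log2 ratio. The groups are separate in 5 pairs and overlap for PSMB8 over PSMB9, and TAP1 over TAP2 and NLRC5 over CIITA are lower in the HFCF pigs.

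Of the 4 genes for the activators and the assembly of the proteasome, 2 were higher. PSME2, a subunit of the interferon-inducible activator PA28, measured 10.3, 11.8 and 13.2 FPKM in NC pigs 1 to 3 and 37.4, 34.8 and 38.9 FPKM in HFCF pigs 1 to 3, with the groups far apart and a log2 fold change of 1.65 ± 0.14 (SE, limma adjusted p = 0.000961). POMP, the chaperone of proteasome assembly, was at 3.97 to 5.87 and 12.6 to 12.9 FPKM, with a log2 fold change of 1.32 (limma adjusted p = 0.00411). PSME1, the partner of PSME2 in the activator, had a log2 fold change of 0.47 that was not called (limma adjusted p = 0.0867). PSME3, which forms a nuclear activator, had a log2 fold change of -0.43 with a 95% interval of -1.48 to 0.63. The deposited KEGG annotation assigns 37 tested genes to the proteasome, other than PSMB8 and PSMB9. Of these, 12 were called higher and 0 lower by limma, against 22.8% and 6.16% of all tested genes. At an unadjusted limma p under 0.05 the counts were 14 and 1. The share of all tested genes at that threshold was not computed, so these counts have no share to be read beside. The median log2 fold change of the 37 genes was 0.27, which is below the 0.32 of all tested genes. This list was added after the values had been seen, and it includes PSMB10, PSME2 and PSMB7.

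In the endoplasmic reticulum, 6 of 13 tested genes for peptide entry, trimming and loading were higher. ERAP2, an aminopeptidase that trims class I peptides, measured 1.04, 1.24 and 1.06 FPKM in NC pigs 1 to 3 and 6.26, 4.67 and 4.17 FPKM in HFCF pigs 1 to 3, well separated, with a log2 fold change of 2.06 ± 0.23 (SE, limma adjusted p = 0.00188). ERAP1, the related aminopeptidase, had a log2 fold change of 1.31 (limma adjusted p = 0.00457). CANX, which encodes the chaperone calnexin, was at 8.13 to 10.2 FPKM in the NC pigs and at 16.2, 46.4 and 42.4 FPKM in HFCF pigs 1 to 3. In contrast to the 6 genes above, HFCF pig 1 was the lowest of its group for CANX, whose log2 fold change was 1.81 (limma adjusted p = 0.0155, with 0.0607 without NC pig 1 and 0.0517 without NC pig 2). UGGT1, the glucosyltransferase that senses unfolded glycoproteins, had a log2 fold change of 1.67 (limma adjusted p = 0.00826). CALR and PDIA3, whose proteins hold the empty heavy chain beside the transporter, were named after their values were seen. Both were abundant in both groups. CALR, the calreticulin gene, was at 145 to 174 FPKM in the NC pigs and at 142 to 166 FPKM in the HFCF pigs, and PDIA3 at 141 to 164 and 155 to 205 FPKM. Their log2 fold changes were 0.01 (95% interval -0.33 to 0.35) and 0.20 (-0.17 to 0.57).

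Relatives of the class I heavy chain were represented by 8 tested genes, 4 of them higher. FCGRT, the chain of the neonatal Fc receptor, was at 42.4 to 50.4 FPKM in the NC pigs and at 98.1 to 100.5 FPKM in the HFCF pigs, with a log2 fold change of 1.09 (limma adjusted p = 0.00226). HFE, the haemochromatosis protein, had a log2 fold change of 1.34 (limma adjusted p = 0.00742), and both proteins pair with B2M. CD1D, which presents lipids, was at 0.0497 to 0.0654 FPKM in the NC pigs and at 1.43, 0.313 and 0.412 FPKM in HFCF pigs 1 to 3. Its log2 fold change of 2.10 (limma adjusted p = 0.0273) was not called without NC pig 1, 2 or 3, with adjusted p-values of 0.0879, 0.0712 and 0.0632. With a pseudocount of 1, which weighs on so low a gene, it was 0.64 with an adjusted p of 0.0803. The other gene called in this list was SLA-8.

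Of the 23 genes for class I transcription and the interferon gamma response, 8 were higher. CIITA, the class II coactivator, measured 1.06, 0.845 and 0.865 FPKM in NC pigs 1 to 3 and 6.75, 4.75 and 4.51 FPKM in HFCF pigs 1 to 3. Its log2 fold change was 2.39 ± 0.24 (SE, limma adjusted p = 0.00138). The ratio of NLRC5 to CIITA was 2.44, 2.43 and 6.15 in NC pigs 1 to 3 and 1.92, 1.78 and 1.07 in HFCF pigs 1 to 3. It was lower in every HFCF pig, with a difference of the log2 ratio of -1.10, and of -0.66 without NC pig 3 (exact two-sided permutation p = 0.1 with all pigs). RFXANK, a subunit of the RFX complex on class I and class II promoters, rose with a log2 fold change of 1.60 (limma adjusted p = 0.00159).

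SOCS1, a feedback inhibitor of interferon signalling, had a log2 fold change of 1.41 (limma adjusted p = 0.0167), which was not called without NC pig 2 or HFCF pig 2, with adjusted p-values of 0.0557 and 0.0529, or with quantile normalization, with 0.106. STAT2, a transcription factor of the interferon response, had a log2 fold change of 1.18 (limma adjusted p = 0.032) and was not called without NC pig 1, NC pig 2, HFCF pig 1 or HFCF pig 3, with adjusted p-values of 0.109, 0.0964, 0.0801 and 0.0673, nor under the 3 other scalings, with 0.0655 to 0.0878, nor without a filter, with 0.0508. IRF1 and IFNG were named after their values were seen. IRF1, which binds class I promoters, was at 11.9 to 16.6 and 18.5 to 34.7 FPKM with no overlap, and its log2 fold change of 0.66 was not called (limma adjusted p = 0.114) and was 0.36 without HFCF pig 1. IFNG itself was listed at 0 in NC pigs 1 and 2 and in HFCF pig 2, and at 0.237, 0.306 and 0.301 FPKM in NC pig 3, HFCF pig 1 and HFCF pig 3.

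**Figure D3:**
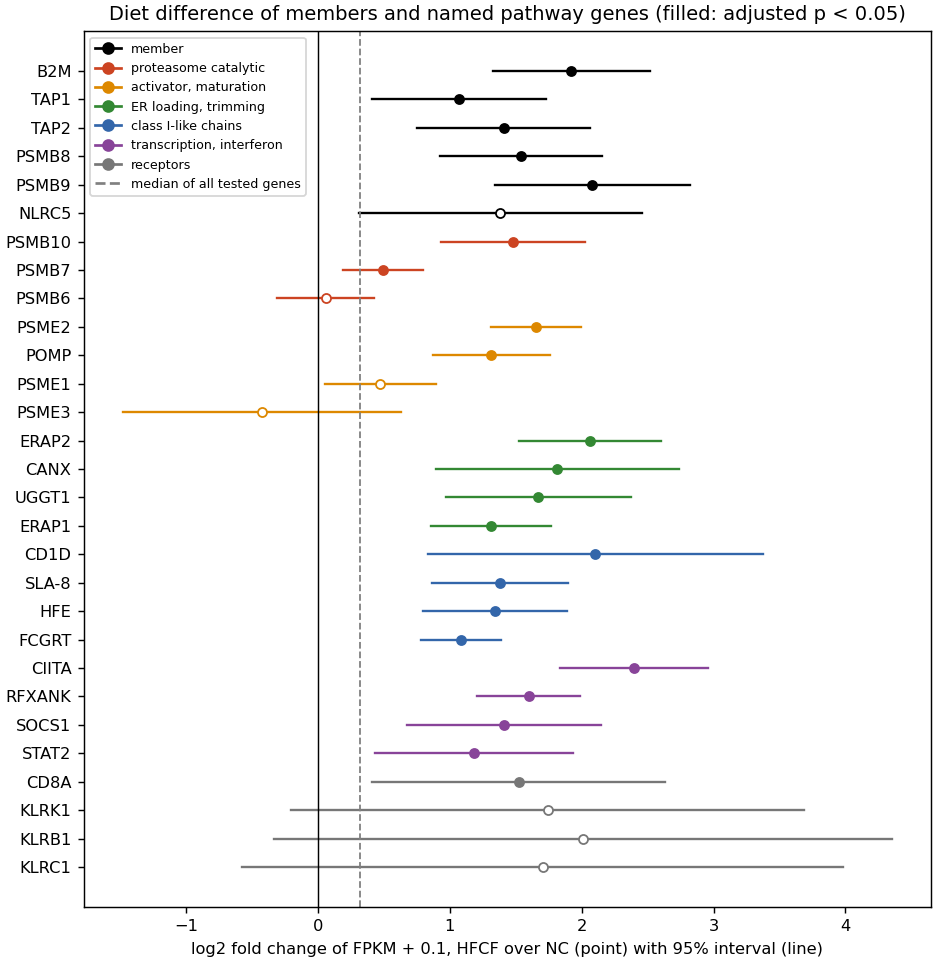
log2 fold change of FPKM + 0.1, HFCF over NC, with its 95% interval, for the 6 genes with values (black) and the genes named by rule from the 6 pathway lists; filled points were called at an adjusted p under 0.05, and the dashed line is the median of all tested genes at 0.32. PSMB9 and CIITA lie far right of that line, PSMB6 lies left of it, and the natural killer receptor genes have the widest intervals.

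Genes for the CD8 coreceptor and natural killer receptors had low levels, and 4 of them were tested. CD8A, a chain of the T cell coreceptor, was at 0.0932 to 0.140 FPKM in the NC pigs and at 1.005, 0.254 and 0.557 FPKM in HFCF pigs 1 to 3. Its log2 fold change of 1.52 reached a limma adjusted p of 0.0494, and the call was lost when any pig but HFCF pig 2 was left out, with adjusted p-values of 0.0977 to 0.129. It was also lost under the 3 other scalings, with 0.0733 to 0.116, and with a pseudocount of 1, with 0.076. KLRK1, which encodes the activating receptor NKG2D, was at 0.0311 to 0.0656 FPKM in the NC pigs and at 1.95, 0.145 and 0.162 FPKM in HFCF pigs 1 to 3, and was not called (limma adjusted p = 0.154). KLRC1 and KLRB1, the latter a receptor whose known ligand is not a class I molecule, were not called either, with limma adjusted p-values of 0.224 and 0.169. KLRB1 passed without HFCF pig 2, in which it was listed at 0, with a log2 fold change of 3.16 against 2.01 with all pigs and an adjusted p of 0.0193.

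Macrophage, lymphocyte and smooth muscle markers differed between the diets to unequal extents. In whole tissue, fewer cells of a type and less RNA per cell cannot be told apart. All 11 macrophage markers were called higher, and their summed level was 48.4 to 60.1 FPKM in the NC pigs and 704 to 1823 FPKM in the HFCF pigs. HFCF pig 1 and NC pig 3 had the highest macrophage sums of their groups, as they had the highest levels of the 6 class I genes. The same pigs also had the highest sums of T and natural killer cell markers, NC pig 3 only narrowly, at 3.49 FPKM against 3.39 FPKM in NC pig 1. Among these markers, NC pig 3 was below NC pig 1 for CD3D, CD3E, CD3G, CD4, CD8A, NKG7, PRF1 and NCR1. It was above NC pig 1 for CD2, LCK, ZAP70 and an entry of GZMA. The macrophage sum was 60.1 FPKM in NC pig 3, against 51.1 and 48.4 FPKM in NC pigs 1 and 2. NC pig 3 was the highest NC pig for CD68, C1QA, C1QB, C1QC, MRC1, MSR1 and ITGAM, and the lowest for CSF1R and CD14. HFCF pig 1 also had the highest endothelial, B and plasma cell, dendritic cell, adipocyte and red blood cell sums of its group. Its smooth muscle and fibroblast sums were the lowest of its group. NC pig 3 had the highest sum of its group only for the macrophage and the T and natural killer cell markers. Of 13 tested entries for T and natural killer cell markers 4 were called higher, and their sum was 2.86 to 3.49 FPKM in the NC pigs and 95.9, 34.1 and 34.7 FPKM in HFCF pigs 1 to 3. NKG7 alone made up 28.3 of the 34.1 FPKM in HFCF pig 2, and KLRD1 was listed at 0 in all 6 pigs. The sum of the B and plasma cell markers was 6.91 to 11.4 and 35.9 to 54.0 FPKM (1 of 6 called), and that of the dendritic cell markers 0.370 to 0.430 and 2.71 to 3.26 FPKM (1 of 4 called). CD79A made up 36.0 of the 38.4 FPKM of the former in HFCF pig 2, and BATF3 2.56 of the 2.71 FPKM of the latter. Of 8 contractile smooth muscle markers 6 were called lower, with a sum of 16389 to 23764 FPKM in the NC pigs and 8341 to 13261 FPKM in the HFCF pigs. Endothelial markers summed to 99.1 to 209 and 87.4 to 231 FPKM, with 0 of 6 called by limma and 2 higher at an unadjusted p under 0.05. The share of all tested genes at that unadjusted threshold was not computed. Of 6 fibroblast markers 1 was called, and their sums overlapped. Adipocyte markers, with 0 of 6 called by limma and 0 at an unadjusted p under 0.05, summed to 192, 300 and 38.1 FPKM in NC pigs 1 to 3, where NC pig 3 stood apart, and to 73.3 to 101 FPKM in the HFCF pigs. Red blood cell markers summed to 2884 FPKM in HFCF pig 1 and to 22.0 to 178 FPKM in the other pigs. The part of these markers in the levels of the class I genes was not tested.

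**Figure D4:**
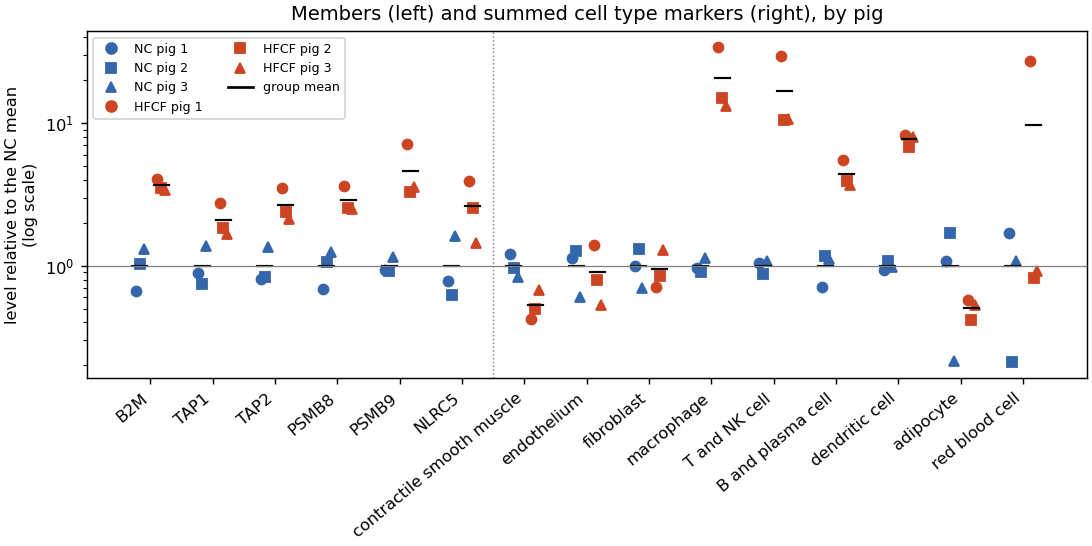
Level relative to the mean of the NC pigs (log axis) for the 6 genes with values (left) and for the summed markers of 9 cell types (right); blue symbols are NC pigs, red symbols are HFCF pigs and black lines are group means. The HFCF means of the macrophage and the T and natural killer cell sums lie further above the NC mean than those of any of the 6 genes. The same holds for the dendritic cell sum and, through HFCF pig 1, for the red blood cell sum. The smooth muscle sum lies below the NC mean in every HFCF pig.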

How the data were processed

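For the 6 libraries, the authors aligned reads with HISAT2 to an earlier pig genome build than Sscrofa11.1 and ran StringTie, after trimming with cutadapt 1.9 and quality control with FastQC, per the methods and the submitters' processing notes. The deposited FPKM values of 30477 genes were used as given. Because FPKM expresses a gene relative to its own library, a few abundant genes can move all others. Entries of 1e-04 FPKM stand for 0. Groups came from the sample titles.

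The diets were compared with limma 3.58.1 in R 4.3.3 on log2(FPKM + 0.1), without further covariates, with a variance trend in eBayes, a filter at a mean FPKM of 0.1 and Benjamini-Hochberg adjustment over the 15384 tested genes. The log2 scale with a pseudocount understates changes of low genes. Precision was taken from the spread among 3 pigs a group, since the depth is not given in the sources used here. Ratios within a library were compared with exact two-sided permutation tests. The fit was tested on simulated data.

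All genes under study and up to 4 genes of each pathway list were named, called genes with the largest change before others by mean FPKM, as well as genes used in a ratio. The members and lists were chosen with earlier results of these data known. PSMB6 and KLRC1 were matched by description, and TAP2, SLA-7, SLA-8 and CD1D by identifier. Ratios that need PSMB5, TAPBP or SLA-1 to SLA-3 were not analysed here. Alternatives were pseudocounts of 1 and 0.01, no filter or a minimum mean of 1, 3 other scalings, no variance trend, a replicate block, each library left out, and the thresholds of the study. An alternative without HFCF pig 1 and NC pig 3 was chosen after seeing the data.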

Additional observations from a re-analysis of the deposited data

How the results depend on the processing

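Of the 6 genes with values, B2M, TAP2, PSMB8 and PSMB9 were called higher under all 16 alternatives of the limma fit, with log2 fold changes of 1.56 to 2.14, 1.06 to 1.65, 1.19 to 1.72 and 1.67 to 2.29. TAP1 was called in 8 of them (0.71 to 1.32) and NLRC5 in 3 (0.99 to 1.77). Among the 5 genes found by name, the number called was 3 to 5 when each pig was left out, while 12.9% to 18.5% of all tested genes were called higher. With all pigs and TAP2 counted as well it was 5 of 6. Of the pathway lists, 23 genes were called higher with all pigs, and 14 to 21 with each pig left out, 14 without NC pig 1 and 15 without NC pig 2. Under median-ratio scaling, quantile normalization and TPM it was 17 each time, against 13.2%, 11.4% and 14.5% of all tested genes. The number called lower was 0, but 3 with median-ratio scaling (IRF9, NFYC and RELA), 1 with quantile normalization and 1 with TPM (IRF9 in both). Of the 15384 tested genes, 948 were called lower in the deposited FPKM, and 1967, 1782 and 1527 under these scalings. The sign of PSMB6 turned with these scalings to -0.30, -0.0080 and -0.20, that of CALR to -0.35, -0.15 and -0.25, and that of PDIA3 to -0.15 with median-ratio scaling and -0.058 with TPM; none of these was called. With each pig left out, PSMB6 ranged from -0.055 to 0.18, CALR from -0.041 to 0.092 and PSME3 from -0.69 to 0.091. The causes were not tested.

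The replicate numbers did not pair the pigs, with residual correlations of 0.02, -0.08 and -0.07. With a replicate block, 3 of the 5 genes were called, since TAP1 had an adjusted p of 0.0614, 19 list genes were called higher, 14.5% of all genes were called higher, SLA-7 was called (adjusted p = 0.0462), and PSMB7, CD1D, STAT2 and CD8A were not (0.0557 to 0.0866). The filter also set the share of all genes called higher, at 13.3% with no filter. With 3 pigs a group and no depths, small changes of low genes such as IFNG were not detectable. The summed heavy chains were not analysed here.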
